A study of Homo sapiens with 9 samples.

Results

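The genes described are 10 immediate early response genes, EGR1, JUNB, JUN, FOS, IER2, IER5, ATF3, KLF6, KLF10 and ZFP36, taken by symbol from a table of 23369 genes. The list was chosen by the EGR1 values in foretinib and DMSO in these libraries, which were known to differ, and its relatives and other early genes were set beside it. The level of EGR1 in foretinib against DMSO is therefore a description and is given without a test. RNA came from NCI-H1155, a neuroendocrine line from a human lung tumour, plated for 24 h and then kept for 4 h with 1 µM foretinib, with 1 µM cabozantinib or with the vehicle DMSO. Each of the 3 groups had 3 libraries, all from this 1 line grown in medium with serum, and no group carried a genetic change named in the labels. Foretinib and cabozantinib are multi-kinase inhibitors built on the same scaffold; foretinib has a morpholinopropoxy group where cabozantinib has a methoxy group on the quinoline, and a fluorine on the central phenyl ring. The study set these compounds side by side because similar structures had unlike activity against cancer cells.

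Immediate early genes are switched on within minutes of a growth factor or stress signal, without new protein synthesis. Growth factor receptors reach them largely through ERK, which phosphorylates ternary complex factors bound with SRF at CArG boxes, and through kinases that phosphorylate CREB and ATF1 at cAMP response elements. Their messages are short-lived, so their level follows the signal closely in most cells. EGR1, JUNB, JUN, FOS, ATF3, KLF6 and KLF10 are DNA-binding transcription factors. IER2 and IER5 are nuclear proteins without a classical DNA-binding domain, and ZFP36 is an RNA-binding protein that speeds the decay of AU-rich messages, so the name transcription factor does not cover these 3 genes.

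Promoter windows show how the sites for these signals are laid out around the start of EGR1 and of 3 other members from the AP-1 and IER groups. The windows hold 250 bases before and 50 bases after the RefSeq start, read 5′ to 3′ on the gene's strand in build GRCh38.p14. Capitals mark CArG boxes, the binding sequence of SRF, and the cAMP response element core TGACG on either strand. EGR1 lies at chr5:138465229-138465528, JUNB at chr19:12791236-12791535, FOS at chr14:75278578-75278877 and IER2 at chr19:13150161-13150460, all on the plus strand.
EGR1: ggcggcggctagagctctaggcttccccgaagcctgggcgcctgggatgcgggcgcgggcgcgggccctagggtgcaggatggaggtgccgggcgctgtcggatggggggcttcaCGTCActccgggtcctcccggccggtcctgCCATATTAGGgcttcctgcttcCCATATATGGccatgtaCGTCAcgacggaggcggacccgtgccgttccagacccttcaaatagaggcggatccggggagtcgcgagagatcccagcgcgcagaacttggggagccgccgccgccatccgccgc
JUNB: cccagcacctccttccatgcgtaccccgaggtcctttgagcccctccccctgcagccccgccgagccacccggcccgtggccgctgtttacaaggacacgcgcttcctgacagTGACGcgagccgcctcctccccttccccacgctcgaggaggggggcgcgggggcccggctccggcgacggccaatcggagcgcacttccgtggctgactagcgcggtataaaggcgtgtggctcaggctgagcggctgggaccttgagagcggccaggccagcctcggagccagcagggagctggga
FOS: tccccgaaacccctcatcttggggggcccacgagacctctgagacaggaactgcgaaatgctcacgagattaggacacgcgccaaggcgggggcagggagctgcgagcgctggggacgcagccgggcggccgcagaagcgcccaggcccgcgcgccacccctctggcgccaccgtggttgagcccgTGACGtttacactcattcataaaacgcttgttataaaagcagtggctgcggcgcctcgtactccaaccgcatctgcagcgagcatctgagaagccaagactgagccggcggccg
IER2: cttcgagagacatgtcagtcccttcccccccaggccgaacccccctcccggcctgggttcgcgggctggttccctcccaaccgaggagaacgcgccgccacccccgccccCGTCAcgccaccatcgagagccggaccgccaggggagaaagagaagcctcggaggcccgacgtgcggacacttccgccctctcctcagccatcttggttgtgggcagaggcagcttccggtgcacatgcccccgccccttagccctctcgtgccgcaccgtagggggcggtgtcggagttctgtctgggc
The EGR1 window held 2 CArG boxes, at positions -105 and -83 from the start, and 2 TGACG cores, at -135 and -66. RefSeq windows were used for 9 of the 10 members, 10 windows in all because ATF3 had 2 of them. A CArG box was found in 1 of these 10 windows, that of EGR1, against 1.29% of all 35116 promoter windows of the same length. Sites outside the windows, such as those more than 250 bases before the start, were not searched. A window without a CArG box therefore does not show that a gene lacks one. TGACG was found in 5 of the 10, those of EGR1, JUNB, JUN, FOS and IER2, against 24.6% of all windows. The AP-1 site TGANTCA, which JUN and FOS proteins bind, was in 0 of the 10 and in 7.71% of all, and the EGR site GCGNGGGCG was in the windows of EGR1 and KLF6 and in 9.43% of all. CCGGAA, a longer form of the ETS core GGAA, was found for IER2 and IER5 (17.2% of all windows). GGAA itself was not searched, so a window without CCGGAA may still hold it. The EGR1 window does, as ttcc on the printed strand between its CArG boxes. TATAAA was found for JUNB, FOS and the second ATF3 window (11.5% of all). Both strands were searched, and a match describes letters in the window and not a bound site. A CArG box can contain TATAAA, though the EGR1 window held no TATAAA.

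Values are normalised read counts, that is, the reads of a gene divided by 1 size factor per library. Gene-assigned reads numbered 26996023 to 34062153 in foretinib, 27264766 to 27522332 in cabozantinib and 27257862 to 32986439 in DMSO. The foretinib libraries detected fewer genes: of the 12642 genes tested, 16.3% to 21.0% were at 0 in a foretinib library, 4.41% to 5.48% in a cabozantinib library and 5.30% to 10.9% in a DMSO library, the highest DMSO share being that of replicate 2. Pearson's correlation between libraries of a group, across genes, was 0.575 to 0.597 in foretinib, 0.710 to 0.727 in cabozantinib and 0.674 to 0.712 in DMSO. All 9 neuroendocrine markers were detected, led by NEUROD1, and summed to 69735 to 73359 in foretinib, 67381 to 72874 in cabozantinib and 58887 to 62733 in DMSO. All 4 epithelial markers were detected, led by KRT18, and summed to 2603 to 5109 in foretinib, 4271 to 6674 in cabozantinib and 3962 to 6554 in DMSO. Of 5 fibroblast markers COL3A1 and DCN were at 0 in all 9 libraries, and the list, led by COL1A2, summed to 869 to 1194 in foretinib, 767 to 1049 in cabozantinib and 453 to 1345 in DMSO. Of 4 leukocyte markers PTPRC, CD3E and MS4A1 were at 0 in all libraries, and the sum, all of it CD68, was 0.822 to 755 in foretinib, 174 to 271 in cabozantinib and 4.89 to 199 in DMSO. Of 3 endothelial markers VWF and CDH5 were at 0 in all libraries, and the sum, all of it PECAM1, was 0 in foretinib and reached 53.2 in cabozantinib and 87.4 in DMSO; both red cell markers, HBB and HBA1, were at 0 throughout. Whether the lower number of detected genes in foretinib plays a part in the differences below was not tested. A bulk library cannot tell fewer expressing cells from less RNA in each cell.

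Because low genes were often missing from the foretinib libraries, each member is set beside level-matched genes, meaning tested genes whose mean over the 9 libraries lay within 1.25-fold of its own. Fold changes are differences of log2(value + 1) from limma, tested at a Benjamini-Hochberg adjusted p of 0.05 over all 12642 genes. By this test 0 of the 12642 genes were called in foretinib against DMSO, 0 in cabozantinib against DMSO and 0 in foretinib against cabozantinib, so percent called was 0 in each. At an unadjusted p under 0.05 the counts were 1146 (9.07%), 166 (1.31%) and 1252 (9.90%) genes in that order. edgeR on the recovered reads also called 0 in each, and DESeq2 called 650, 47 and 618. Of the 10 members, 9 passed the filter on low values and FOS did not.

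EGR1, a zinc finger factor induced through ERK and SRF, was highest in DMSO, intermediate in cabozantinib and lowest in foretinib. Its values were 1029, 902 and 208 in foretinib replicates 1, 2 and 4, 2330.2, 2610.0 and 2913 in cabozantinib replicates 3, 4 and 5, and 4430.1, 4525 and 4944 in DMSO replicates 2, 4 and 5. All 3 foretinib libraries lay below all 3 cabozantinib libraries, and these in turn lay below all 3 DMSO libraries. Means were 713 ± 442 in foretinib, 2618 ± 292 in cabozantinib and 4633 ± 273 in DMSO (SD, n = 3 each). The EGR1 mean in foretinib was 6.50-fold below DMSO and 3.67-fold below cabozantinib, and that in cabozantinib was 1.77-fold below DMSO.

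On the log2 scale EGR1 differed by -3.00 between foretinib and DMSO, the comparison it was chosen on, so no error or rank is given. The 1146 genes of its level had a median of -0.0044 in this comparison and were at 0 in 0% of their foretinib values. By contrast, 42.1% of the foretinib values of genes matched to JUN were at 0. The EGR1 difference was -2.26 without foretinib replicate 4, the library with the lowest EGR1 value and the largest share of genes at 0. Spread was unequal between the groups. The coefficient of variation of EGR1 was 62.0% in foretinib, 11.1% in cabozantinib and 5.89% in DMSO, against medians of 39.7%, 19.6% and 22.3% among level-matched genes.

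In cabozantinib against DMSO EGR1 differed by -0.83 on the log2 scale (SE 0.52, 95% interval -1.96 to 0.30) and did not pass (limma adjusted p = 1.00). Relative to level-matched genes it was -0.85, and 5 of those 1146 genes had a lower value. For every gene the error was shared over the 3 groups. This EGR1 interval therefore carries the foretinib spread (coefficient of variation 62.0%, against 11.1% in cabozantinib and 5.89% in DMSO). The comparison shares its DMSO libraries with the one that put EGR1 on the list. Between the compounds, at the same dose and time, the EGR1 difference was -2.17 (SE 0.52, 95% interval -3.30 to -1.04), or -2.15 relative to level-matched genes. It did not pass over all genes (limma adjusted p = 0.377, range over alternatives 0.00119 to 0.722), and it rests on the foretinib libraries that chose EGR1. DESeq2 gave the lowest of these, 0.00119, with a log2 fold change of -1.88. The foretinib group held the lower value in every library, and the difference was -2.59 to -1.44 when each library was left out in turn.

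**Figure D1:**
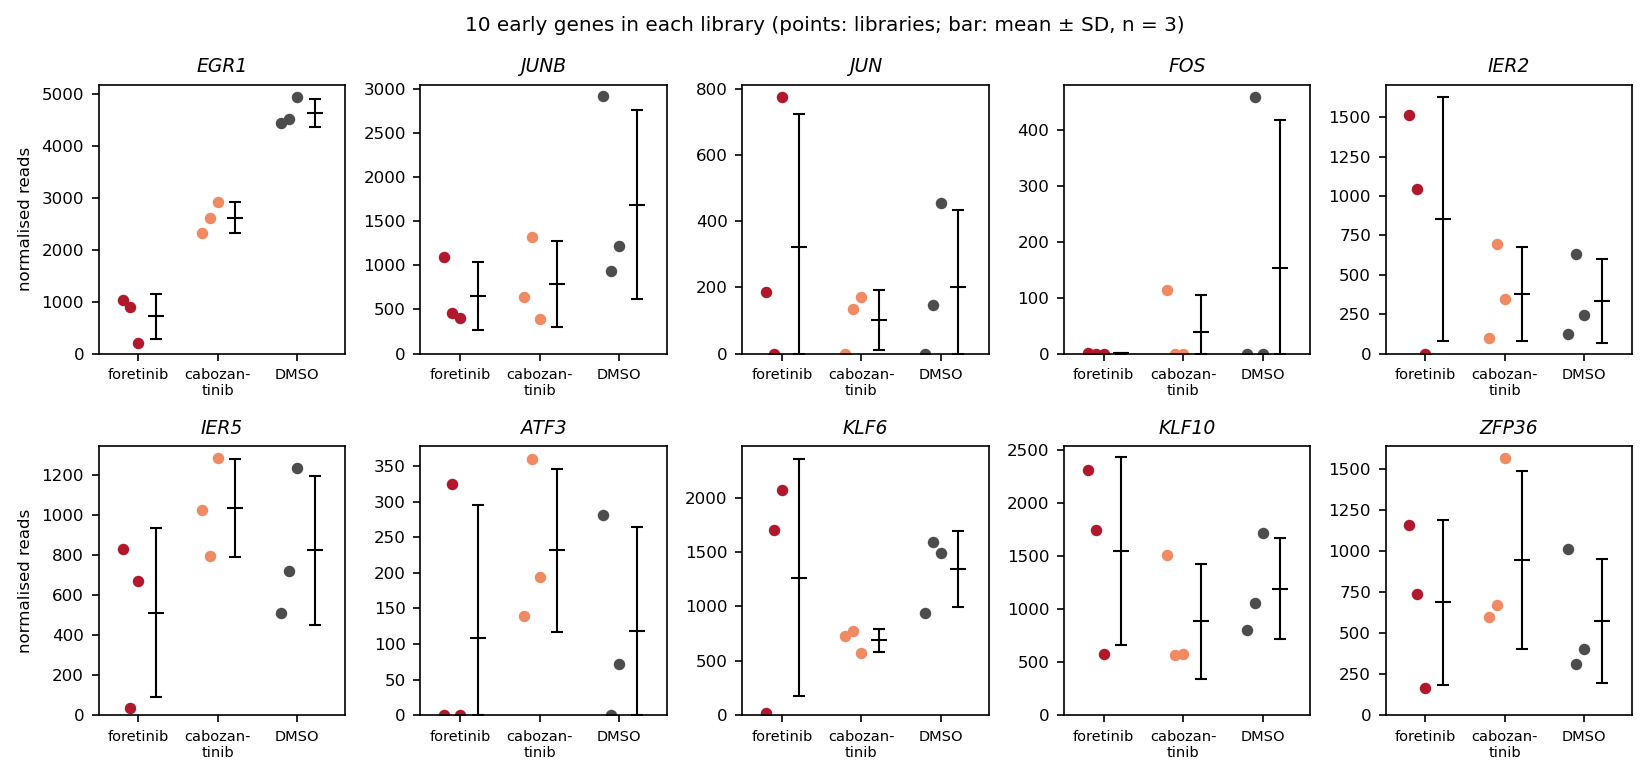
Normalised reads of the 10 members are plotted for each library, with points for single libraries and a bar for the group mean ± SD (n = 3, lower ends clipped at 0); each panel has its own linear axis from 0. EGR1 separates into 3 ranges, 208 to 1029 in foretinib, 2330.2 to 2913 in cabozantinib and 4430.1 to 4944 in DMSO, while most other panels overlap.

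The EGR paralogues were hardly read. EGR2, which shares the zinc finger DNA-binding domain of EGR1, was at 403 in foretinib replicate 2 and 110 in cabozantinib replicate 5 and listed at 0 in the other 7 libraries. EGR3 and EGR4 were listed at 0 in all 9 libraries. None of these 3 passed the filter on low values, so EGR1 was the tested member of its family.

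FOS, the partner of JUN proteins in AP-1, was near the limit of detection. It was at 0.822, 0 and 0 in foretinib, 114, 0 and 0 in cabozantinib and 0, 459 and 0 in DMSO. Single libraries carry each mean, and the groups overlap. Among genes of its level 70.6% of foretinib values, 28.7% of cabozantinib values and 38.2% of DMSO values were at 0, and no fold or test is given. FOSB, its paralogue, was above 0 in 1 of the 9 libraries, at 76.5. FOSL1, another FOS paralogue, was listed at 0 in all 3 foretinib libraries, was at 185, 277 and 256 in cabozantinib and at 339, 0 and 235 in DMSO. It separated foretinib from cabozantinib without overlap, but 51.4% of the foretinib values of genes at its level were at 0. It did not pass (limma adjusted p = 0.393, range over alternatives 0.00235 to 0.722, the lowest from DESeq2). Having met the filter only through cabozantinib and DMSO, FOSL1 could only come out lower in foretinib. Its p values are therefore no support for a fall.

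JUNB, an AP-1 subunit of the JUN family, was at 1090.3, 458 and 405 in foretinib, 645, 1323 and 386 in cabozantinib and 2915, 931 and 1215 in DMSO. Both compounds gave mostly lower values, but foretinib replicate 1 and cabozantinib replicate 4 lay within the DMSO range, whose top was set by replicate 2. The log2 fold change was -1.34 (SE 0.73, 95% interval -2.91 to 0.23) for foretinib against DMSO and -1.11 (SE 0.73, 95% interval -2.68 to 0.46) for cabozantinib against DMSO. Neither passed (limma adjusted p = 0.531 and 1.00). Relative to level-matched genes these were -1.10 and -1.14, and 330 of 1587 such genes had a lower value in the first comparison against 27 of 1587 in the second. Between the compounds JUNB differed by -0.23 (95% interval -1.80 to 1.33; limma adjusted p = 0.911).

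JUN, the founding AP-1 subunit, was low and scattered. It was at 187, 0 and 776 in foretinib, 0, 135 and 170 in cabozantinib and 0, 146 and 456 in DMSO. Each group had 1 library at 0, and the groups overlap fully. The 95% intervals ran from -6.81 to 7.57 for foretinib against DMSO, from -7.70 to 6.68 for cabozantinib against DMSO and from -6.30 to 8.08 between the compounds. The sign of all 3 JUN differences depended on single libraries. JUND and FOSL2, named after their values were seen, are the constitutive JUN relative and a FOS relative. JUND was at 164, 12.5 and 457 in foretinib, 206, 195 and 393 in cabozantinib and 315, 344 and 473 in DMSO (-1.89 for foretinib against DMSO, limma adjusted p = 0.672; -0.44 without foretinib replicate 2 and -2.98 without foretinib replicate 4). FOSL2 was at 527, 72.0 and 575 in foretinib, 602, 12.0 and 903 in cabozantinib and 785, 452 and 840 in DMSO (-1.25, limma adjusted p = 0.772; -0.28 without foretinib replicate 2). Genes of the same level had medians of -1.91 and -1.41 there.

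IER2 was at 1515, 1043 and 0 in foretinib, 97.3, 694 and 348 in cabozantinib and 122, 633 and 247 in DMSO. It was thus higher in foretinib replicates 1 and 2 than in any other library and listed at 0 in foretinib replicate 4. That 1 zero set the sign: the log2 fold change for foretinib against DMSO was -1.20 (95% interval -6.41 to 4.00; limma adjusted p = 0.862) and became 2.23 without foretinib replicate 4, while the ratio of means was 2.55. Against cabozantinib the IER2 values were -1.30 and 2.13 in the same order. IER5 was at 830.5, 32.7 and 667 in foretinib, 1023, 794 and 1281 in cabozantinib and 512, 720.2 and 1235 in DMSO. Foretinib replicate 2 alone lay far below the rest, and the IER5 log2 fold change was -1.54 (95% interval -3.94 to 0.86; limma adjusted p = 0.614) against DMSO, and -0.048 without that library. Between the compounds IER5 differed by -1.93 (95% interval -4.33 to 0.46; limma adjusted p = 0.535), and by -0.44 without foretinib replicate 2. IER5L, an IER5 relative, was at 3666, 6793 and 6212 in foretinib, 4163, 5595 and 4291 in cabozantinib and 7658, 5556 and 5072 in DMSO. Its difference was -0.16 (95% interval -0.76 to 0.44) for foretinib against DMSO and -0.37 (95% interval -0.97 to 0.23) for cabozantinib against DMSO.

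ATF3, a stress-induced repressor of the ATF and CREB family, was at 0, 325 and 0 in foretinib, 140.1, 361 and 194 in cabozantinib and 282, 0 and 71.5 in DMSO. Every cabozantinib library held reads, while 2 foretinib libraries and 1 DMSO library were at 0. Among genes of its level 49.3% of foretinib values, 14.3% of cabozantinib values and 21.5% of DMSO values were at 0. The log2 fold change between the compounds was -4.97 (95% interval -11.38 to 1.45; limma adjusted p = 0.541), against a median of -2.59 for level-matched genes. It was -7.75 without foretinib replicate 2 and -3.58 without foretinib replicate 1 or 4, and DESeq2 gave -1.09. For foretinib against DMSO it was -1.99, with a level median of -1.97, and it ranged from -4.77 to -0.31 when single libraries were left out.

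The KLF members differed from each other. KLF6, a zinc finger factor of the Krüppel-like family, was at 19.7, 1706 and 2068 in foretinib, 723, 772 and 567 in cabozantinib and 942, 1595 and 1489 in DMSO. All 3 cabozantinib libraries lay below all 3 DMSO libraries, whereas foretinib spanned both ranges, with 1 library far below them. For cabozantinib against DMSO the KLF6 log2 fold change was -0.94 (SE 1.35, 95% interval -3.84 to 1.96; limma adjusted p = 1.00), with 57 of 1576 level-matched genes lower; the error was shared over the groups and carries the foretinib scatter. For foretinib against DMSO it was -1.65 (95% interval -4.54 to 1.25; limma adjusted p = 0.655) and turned to 0.52 without foretinib replicate 1. KLF10, induced by TGF-beta, was at 2317, 1749 and 575 in foretinib, 1510, 564 and 580.0 in cabozantinib and 806, 1055 and 1722 in DMSO. The ranges overlap, with 1 high cabozantinib library and 1 low foretinib library. Its log2 fold change for foretinib against DMSO was 0.22 (95% interval -1.20 to 1.65; limma adjusted p = 0.915), and between the compounds it was 0.75 (95% interval -0.68 to 2.17; limma adjusted p = 0.661).

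ZFP36 was at 1163, 738 and 162 in foretinib, 597, 669.7 and 1572 in cabozantinib and 1011, 314 and 401 in DMSO. The groups overlap throughout, and foretinib holds the lowest value while cabozantinib holds the highest. Its log2 fold change was 0.04 (95% interval -1.96 to 2.04; limma adjusted p = 0.993) for foretinib against DMSO, 0.77 (95% interval -1.23 to 2.77; 1.00) for cabozantinib against DMSO and -0.72 (95% interval -2.72 to 1.28; 0.761) between the compounds. ZFP36L1, its paralogue, was listed at 0 in all 9 libraries.

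As a group the 8 tested members other than EGR1 showed no passing change. For foretinib against DMSO 5 of these 8 had a log2 fold change below 0, against 63.8% of all tested genes, and their median was -1.27, against -0.34 over all tested genes. Relative to level-matched genes the median of the 8 was 0.11. For cabozantinib against DMSO the median was -0.21, or -0.26 relative to level-matched genes, with 4 of 8 below 0 against 46.7% of all. Between the compounds it was -0.71, or -0.07 relative to level-matched genes, with 6 of 8 below 0 against 66.3%. Groups without overlap, lower, were 0 of the 8 tested members other than EGR1 in foretinib against DMSO, against 7.69% of tested genes. EGR1, chosen on that comparison, was also lower without overlap there. Among the same 8 members, 1 was lower without overlap in cabozantinib against DMSO (KLF6, against 4.71% of tested genes). Between the compounds 0 of the 8 were lower without overlap (against 9.70%). EGR1 was lower without overlap in both of these comparisons too. Each shares libraries with the comparison EGR1 was chosen on, so EGR1 is not set against the background. Groups without overlap, higher, were 0 of the 8 in each comparison, against 3.99%, 5.18% and 4.49% of tested genes. The 2 compounds form 1 pair, compared at 1 dose and 1 time, and a p that missed the threshold does not show that they act alike. Comparisons with a group in common share its libraries and are not independent.

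**Figure D2:**
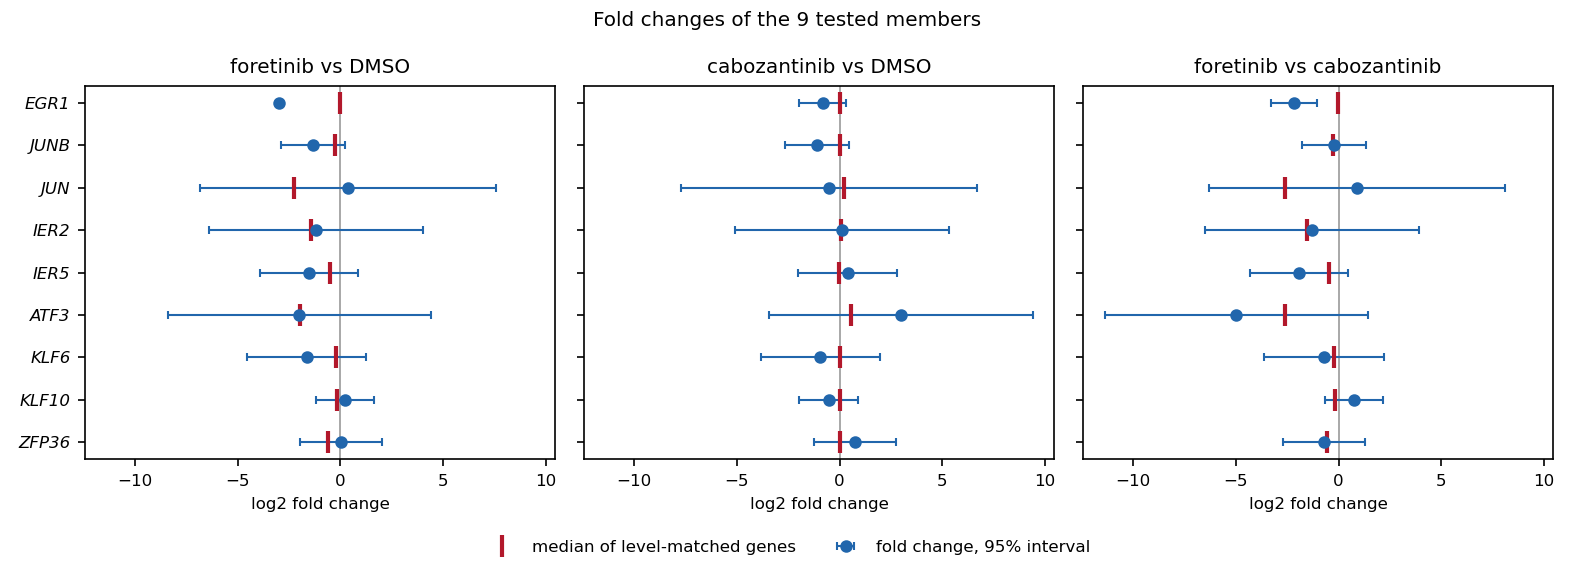
Log2 fold changes of the 9 tested members (points) are plotted with 95% intervals for the 3 comparisons, and red ticks mark the median of level-matched genes. EGR1 has no interval in foretinib against DMSO, where its value of -3.00 is the one it was chosen on; the intervals of JUN, IER2 and ATF3 span many-fold changes in both directions.

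**Figure D3:**
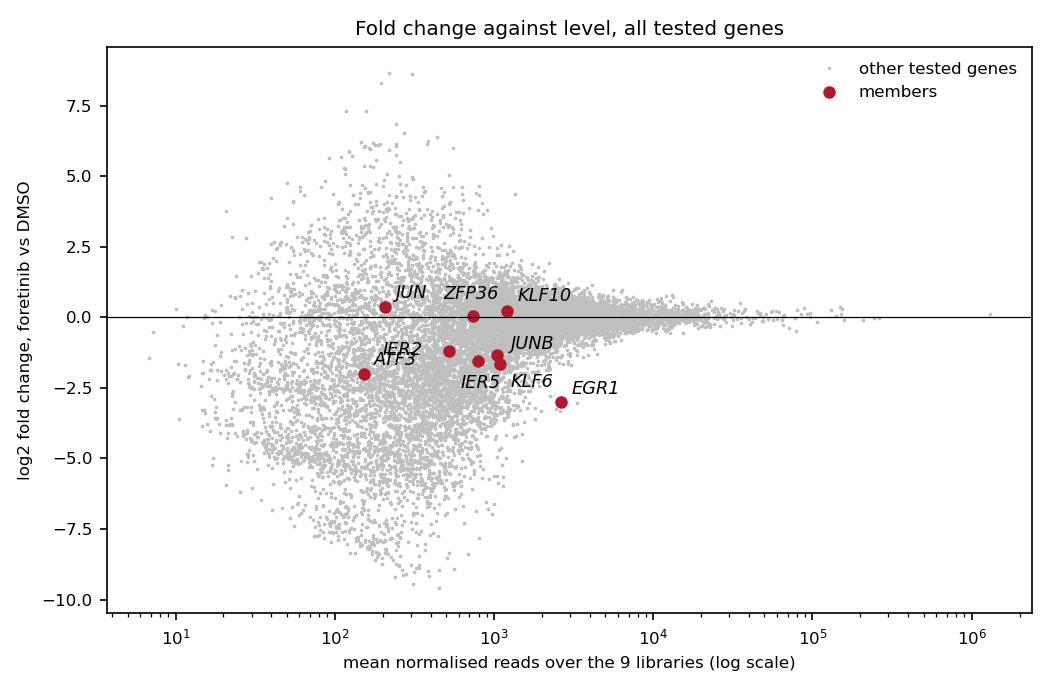
Log2 fold change for foretinib against DMSO is plotted against the mean level over the 9 libraries (log axis) for all 12642 tested genes (grey) and the 9 tested members (red). EGR1 lies at -3.00, the value it was chosen on, while the other tested members lie at lower mean levels than EGR1.

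Of 22 paralogues listed, 17 passed the filter, and limma called 0 higher and 0 lower in each comparison (unadjusted p under 0.05 in 1, 0 and 1). Their median log2 fold change was -1.25 for foretinib against DMSO, against -0.34 over all tested genes, but -0.16 relative to level-matched genes. Values below 0 were found for 14 of 17, against 63.8% of all tested genes. Groups without overlap were 1 of 17 lower and 0 higher in foretinib against DMSO (7.69% and 3.99% of all tested genes), 1 lower and 1 higher in cabozantinib against DMSO (4.71% and 5.18%) and 2 lower and 0 higher between the compounds (9.70% and 4.49%), shares near those of all genes. KLF11, a repressor related to KLF10, was at 173, 399 and 102 in foretinib, 771, 442 and 619 in cabozantinib and 1330.0, 893 and 716 in DMSO. Its foretinib libraries all lay below the 6 others, and the difference from DMSO was -2.30 (SE 0.92, 95% interval -4.28 to -0.31). Relative to level-matched genes the KLF11 difference was -1.20, and 437 of 1414 such genes had a lower value. KLF11 did not pass (limma adjusted p = 0.522, range over alternatives 0.111 to 0.776). KLF16 was at 528, 161 and 0 in foretinib, 161, 97.7 and 269 in cabozantinib and 725, 642 and 306 in DMSO, lower in cabozantinib than in DMSO without overlap. KLF13 was at 415, 717 and 1252 in foretinib, 755, 1137 and 973 in cabozantinib and 383, 508 and 623 in DMSO, higher in cabozantinib than in DMSO without overlap (0.93, 95% interval -0.60 to 2.46; limma adjusted p = 1.00). KLF3, a repressor of the same family, was at 1.64, 0 and 1185 in foretinib and had an interval of -9.52 to 1.38 against DMSO.

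Among 39 other early genes 33 passed the filter, with 0 called in either direction by limma in each comparison (unadjusted p under 0.05 in 3, 0 and 3). Their median was -1.13 for foretinib against DMSO, against -0.34 over all tested genes, or -0.74 relative to level-matched genes. Values below 0 were found for 26 of 33, against 63.8% of all tested genes. Without overlap, 4 of 33 were lower in foretinib than in DMSO, PLK2, HES1, MAFF and ID1, against 7.69% of all tested genes, and 0 higher (3.99%). In cabozantinib against DMSO 4 of 33 were lower, DUSP5, DUSP6, HES1 and ID3 (4.71%), and 0 higher (5.18%). Between the compounds 3 of 33 were lower in foretinib, ARC, GADD45B and PLK2 (9.70%), and 2 of 33 higher, ID2 and NR4A1 (4.49%). PLK2, a serum-inducible kinase, was listed at 0 in all 3 foretinib libraries and was at 496, 1061 and 237 in cabozantinib and 877, 404 and 379 in DMSO. Among genes of its level 21.4% of foretinib values were at 0. PLK2 met the filter on low values only through cabozantinib and DMSO, so it could only come out lower in foretinib. Its adjusted p against DMSO was 0.358 in limma and 1.82e-09 in DESeq2, in a range of 1.82e-09 to 0.717 over the alternatives. These p values are a description and are no support for a fall. HES1, a repressor that also responds to Notch, was at 1452, 557 and 2185 in foretinib, 1748, 2022 and 1736 in cabozantinib and 2734, 3497 and 3287 in DMSO. Both inhibitors gave HES1 values below all DMSO libraries, by -1.38 for foretinib (limma adjusted p = 0.425) and -0.79 for cabozantinib (limma adjusted p = 1.00).

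Other members of that list were as follows. MAFF, a small MAF factor, was listed at 0 in foretinib and was at 0, 53.8 and 29.7 in cabozantinib and 2.50, 129.6 and 149 in DMSO. At this level 77.9% of foretinib values were at 0. MAFF did not pass in limma (adjusted p = 0.528, range over alternatives 0.0472 to 0.776), and the lowest of these came from DESeq2. It met the filter only through cabozantinib and DMSO and could only come out lower in foretinib, so these p values are no support. PPP1R15A, which directs a phosphatase to eIF2-alpha, was at 4.93, 142 and 573 in foretinib, 605, 560.1 and 1042 in cabozantinib and 1439, 636 and 349 in DMSO (-3.12, 95% interval -6.46 to 0.21; limma adjusted p = 0.531). Without foretinib replicate 1 the PPP1R15A value was -1.26, and without foretinib replicate 4 it was -4.55. For cabozantinib against DMSO the smallest p values on the list were those of ID3 and DUSP6. ID3, an inhibitor of basic helix-loop-helix factors, was at 1026, 795 and 2492 in foretinib, 603, 774 and 1407 in cabozantinib and 1992, 1493 and 1688 in DMSO (-0.98, 95% interval -2.17 to 0.22). DUSP6, the ERK phosphatase, was at 1956, 1842 and 2427 in cabozantinib and 3561, 2858 and 3247 in DMSO, without overlap (-0.64, 95% interval -1.45 to 0.17; limma adjusted p = 1.00). In foretinib DUSP6 was at 1426, 3723 and 3340, overlapping DMSO. ARC, an early gene of neurons, was at 0.822, 0 and 0 in foretinib and 227, 317 and 189 in cabozantinib. At this level 53.3% of foretinib values were at 0. Between the compounds its adjusted p was 0.00553 in DESeq2 and 0.393 in limma (range over alternatives 0.00553 to 0.722). ARC too met the filter only through cabozantinib and DMSO, so these p values are no support for a fall. MYC was listed at 0 in all 9 libraries.

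All 17 listed regulators of early genes and partners of EGR1 passed the filter. In foretinib against DMSO limma called 0 higher and 0 lower. Their median was -0.23, against -0.34 over all tested genes, and 10 of 17 were below 0, against 63.8% of all. Without overlap, 3 of 17 were lower (ATF1, MAPK3 and NAB2, background 7.69%) and 1 of 17 higher (ELK1, background 3.99%). NAB2, a corepressor that binds EGR1 and is itself induced by EGR proteins, was at 22.2, 0 and 412 in foretinib, 874, 1061 and 622 in cabozantinib and 1516, 839.8 and 1038 in DMSO. All foretinib libraries lay below the 6 others. The NAB2 mean was 145 ± 232 in foretinib, 852 ± 221 in cabozantinib and 1131 ± 348 in DMSO, 7.82-fold and 5.89-fold lower in foretinib than in DMSO and in cabozantinib. Its log2 fold change against DMSO was -5.69 (SE 1.85, 95% interval -9.67 to -1.72), or -5.04 relative to level-matched genes, of which 13 of 1485 were lower, and it did not pass (limma adjusted p = 0.406, range over alternatives 0.0954 to 0.776). Without foretinib replicate 4 it was -7.83 and without foretinib replicate 2, the library at 0, -3.49, while edgeR gave -3.00 and DESeq2 -2.97. NAB1, its paralogue, named after its values were seen, was at 2535.8, 1095 and 4631 in foretinib, 2257, 3189 and 2857 in cabozantinib and 3611, 2563 and 2256 in DMSO (-0.23 for foretinib against DMSO, 95% interval -1.21 to 0.74).

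ATF1, which binds cAMP response elements, was at 652, 349 and 1452 in foretinib, 3038, 1846 and 1937 in cabozantinib and 2047, 3181 and 2629 in DMSO. Foretinib was again below all 6 other libraries, with a log2 fold change of -1.90 (SE 0.52, 95% interval -3.01 to -0.78) against DMSO and -1.68 (SE 0.52, 95% interval -2.80 to -0.56) against cabozantinib. Neither passed in limma (adjusted p = 0.358 and 0.377), whereas DESeq2 gave adjusted p values of 0.0139 and 0.0461. The ranges over the alternatives were 0.0139 to 0.717 and 0.0461 to 0.735. ELK4, a ternary complex factor that works with SRF, was at 1293, 241 and 4040.1 in foretinib, 2673, 2376 and 2881 in cabozantinib and 3421, 3620.3 and 1899 in DMSO and overlapped (-1.41 for foretinib against DMSO, limma adjusted p = 0.531; -0.33 without foretinib replicate 2 and -2.36 without foretinib replicate 4). MAPK3, which is ERK1, was at 328, 568 and 113 in foretinib, 882, 771 and 475 in cabozantinib and 1046, 735 and 819 in DMSO. It was lower in foretinib than in DMSO without overlap (-1.63, 95% interval -3.51 to 0.25, limma adjusted p = 0.531). Relative to level-matched genes the MAPK3 difference was -0.74, and 557 of 1434 such genes had a lower value. The SRF coactivators MKL1 and MKL2 had values of 0.45 (95% interval -0.44 to 1.34) and -0.53 (95% interval -1.48 to 0.42) for cabozantinib against DMSO.

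**Figure D4:**
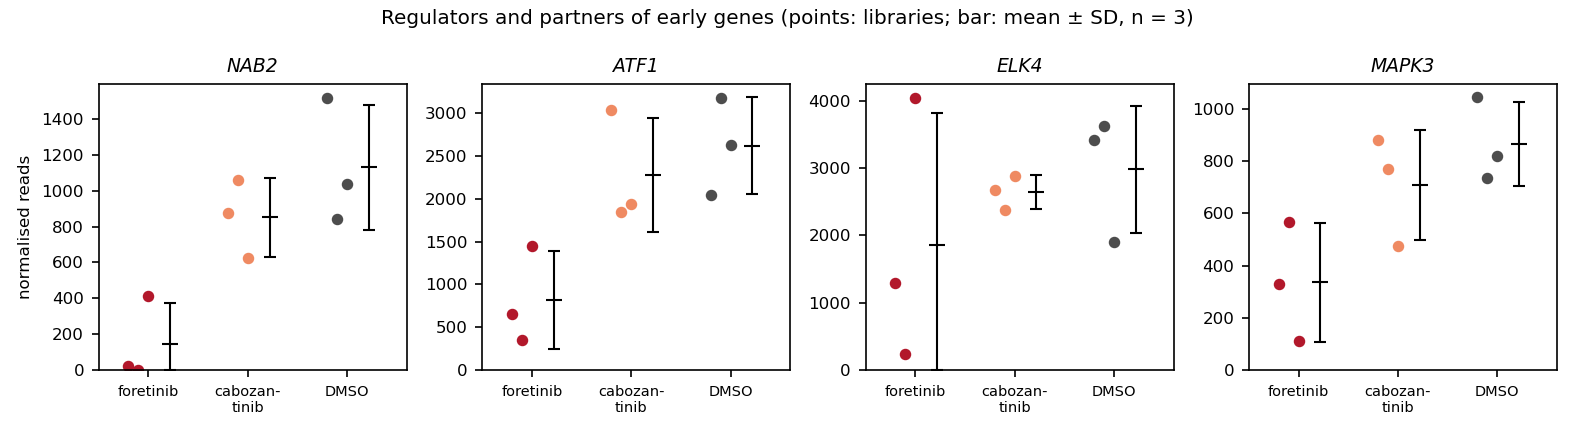
Normalised reads of NAB2, ATF1, ELK4 and MAPK3 are plotted for each library, with points for single libraries and a bar for the group mean ± SD (n = 3, lower ends clipped at 0). NAB2 and ATF1 are lower in all 3 foretinib libraries than in the 6 others, up to 412 and 1452 in foretinib; ELK4 overlaps.

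The genes whose log2 values followed EGR1 most closely over the 9 libraries were DHX9, CIDEB, SHMT1, NSA2 and DOHH, with Pearson's r of 0.981, 0.953, 0.950, 0.932 and 0.931 among 5487 genes with a mean of 1000 or more. The 9 points share the same libraries, group structure and depth, and the median r over these genes was 0.0094. DHX9, an RNA helicase, was at 11056, 10130.4 and 8214 in foretinib, 11785, 12825 and 12010.0 in cabozantinib and 13199, 13776 and 13193 in DMSO, a log2 difference of -0.46 between foretinib and DMSO. SHMT1, the cytosolic serine hydroxymethyltransferase, was at 643, 1015 and 233 in foretinib, 1291, 1519 and 994 in cabozantinib and 1699, 1861 and 2296 in DMSO (a log2 difference of -1.86 between foretinib and DMSO). These genes were chosen for following EGR1 in the same libraries, so their differences are descriptions and carry no test. Among the members r with EGR1 was 0.58 for IER2, 0.57 for JUNB, 0.43 for ATF3, 0.39 for ZFP36, 0.32 for IER5, 0.07 for KLF10, 0.06 for KLF6 and -0.18 for JUN.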

How the data were processed

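RNA-seq libraries of NCI-H1155 cells, 3 per group, were grouped by the treatment label, and replicate numbers are those of the sample titles. The labels call them biological triplicates. The authors deposited 1 signal value per gene and library, the read count divided by a size factor; all values were whole multiples of 1 step within 1e-06 of a read (100% of values in each of the 9 columns), and whole reads were recovered on that basis; in 3 libraries (cabozantinib 3 and 4, DMSO 4) the step was 0.993, 0.997 and 1.005, so near 1 that recovery is less certain there, and edgeR and DESeq2 rest on it. Per the submitters' processing notes the tools were TopHat2 2.0.13, Cufflinks 2.2.1, HTSeq and DESeq2 on build hs37d5; no source used here gives their roles, the annotation or the strand setting. Reads amplified from 1 molecule cannot be told apart, and overlapping antisense genes cannot be separated.

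The filter asked for 3 libraries at 10 or above, which 12642 genes met. Their log2(value + 1) went into limma 3.58.1 (R 4.3.3; trended empirical Bayes), all 9 libraries in 1 model without covariates, and Benjamini-Hochberg adjustment over all genes. A value of 0 is reported as listed at 0. The alternatives were pseudocounts of 10 and 100, no filter, a mean filter of 500, edgeR 4.0.16 and DESeq2 1.42.0 on recovered reads, quantile and TMM scaling, the 6 libraries compared, a replicate block and leaving out each library; the count of groups without overlap with each library left out was added after seeing the data. The procedure was tested on simulated data, with changes placed only in genes of higher mean than any of the 10 members. The simulated spread was the same in all groups, so this says nothing about power at the members' levels or with the foretinib scatter. The members and lists were chosen with earlier results of these data known. Named genes were all members, up to 4 genes per list with the smallest p for foretinib against DMSO, up to 2 per other comparison, EGR2, EGR3 and EGR4, and the 5 genes most like EGR1; JUND, FOSL2, NAB1 and the other genes named only for groups without overlap or for being listed at 0 were added after their values were seen. Not all genes taken by the rule are described at length. No paired design was assumed, since the labels do not say what libraries with the same number share and their correlations could not settle it.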

Additional observations from a re-analysis of the deposited data

How the results depend on the processing

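Over the 19 alternatives the EGR1 difference was -3.43 to -2.26 for foretinib against DMSO, the comparison it was chosen on. It was -0.91 to -0.49 for cabozantinib against DMSO and -2.94 to -1.44 between the compounds. The EGR1 values of the 3 groups do not overlap, so leaving out a library or changing the pseudocount cannot reverse its sign. Changing the filter, fitting only the 6 libraries compared or leaving out a library of neither group cannot move a limma fold change. That EGR1 kept its direction was therefore largely fixed in advance, and no conclusion is drawn from it. DESeq2 called 650, 47 and 618 genes in those comparisons, and quantile normalisation called 1 in foretinib against DMSO. That gene was EGR1, which was chosen on this contrast, so the call is not a test result for it. The other limma fits and edgeR called 0. DESeq2 called 1 member, EGR1, between the compounds; the count of members for foretinib against DMSO leaves EGR1 out, since it was chosen there. Without single libraries, 1 to 3 members had groups without overlap, in either direction, in foretinib against DMSO. The range was 2 to 4 in cabozantinib against DMSO and 1 to 3 between the compounds. EGR1, the gene that chose the list, is among them. In foretinib against DMSO, 2 were lower and 1 higher without foretinib replicate 1, and 1 lower and 2 higher without foretinib replicate 4. Leaving out a library can only keep or raise such a count. No share of all tested genes is given for these fits, so the counts have no background and no conclusion is drawn. Of 27 member fold changes, 13 changed sign at least once, 8 of them outside the fits that left out a library, in 39 of 507 values; the cause was not tested. For IER2, foretinib against DMSO became 0.57 with a pseudocount of 100, 1.32 in edgeR and 1.35 in DESeq2, foretinib against cabozantinib 0.47, 1.13 and 1.17, and cabozantinib against DMSO -0.15 with quantile normalisation. For KLF6, foretinib against cabozantinib became 0.84 in edgeR and 0.88 in DESeq2, and KLF3 in foretinib against DMSO 0.27 and 0.31. The labels do not say what libraries with the same number share. Their deviations correlated at -0.0022 to 0.029 in 5 pairs, against -0.024 to 0.031 in 22 other pairs. Correlations this small between scattered libraries cannot settle whether they were paired. The replicate block called 0 genes; with it KLF6 was 0.55 (foretinib against DMSO) and 1.70 (between the compounds), KLF10 -0.034 and ZFP36 -0.60 (both foretinib against DMSO) and IER5 -0.41 (cabozantinib against DMSO). Leaving out single libraries gave, for foretinib against DMSO, JUN -2.30 to 3.24, IER2 -3.05 to 2.23, KLF6 -2.80 to 0.52, KLF10 -0.18 to 0.83, ZFP36 -0.54 to 0.88 and NAB1 -0.72 to 0.32. For cabozantinib against DMSO it gave JUN -3.18 to 1.91 and IER2 -0.54 to 0.87. Between the compounds it gave JUNB -0.68 to 0.23, JUN -1.53 to 3.75, IER2 -3.15 to 2.13, KLF6 -1.86 to 1.46 and ZFP36 -1.30 to 0.11. The filter on a mean of 500 left no value for JUN and ATF3. Medians of all genes for foretinib against DMSO were -0.20 with quantile normalisation, -0.37 with TMM and -0.027 in edgeR, against -0.34. With 3 libraries a group and many foretinib values at 0, limma intervals of low genes were wide, while DESeq2 called some of them, such as FOSL1, ARC and MAFF. These genes met the filter only through cabozantinib and DMSO, so such calls are no support for a fall in foretinib.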
